A study of Mus musculus with 12 samples.

Results

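Control periosteal stem cells (PSCs) were set against control osteoclasts, the bone-building and the bone-resorbing side of the same study, over 6 of its 12 RNA-seq libraries. The 6 libraries were chosen by their labels as controls, 3 of each cell type, and no measured value entered the choice. The study asked what the arginine methyltransferase Prmt5 does in cells that express the Cre recombinase under the cathepsin K (Ctsk) promoter, and the other 6 libraries are labelled as its conditional knockout (cKO). All mice were C57BL/6. The PSC controls were Prmt5 flox/+ cells carrying Ctsk-Cre and the CAG-CAT-EGFP reporter, from mice 3 to 6 weeks old with 3 mice in each genotype. They were sorted without culture as CD51+ CD200+ cells that lacked CD45, Ter119, CD31, 6C3, CD105 and CD90.2. The osteoclast controls came from the bone marrow of 11-week-old mice, grown first in M-CSF and then harvested 72 h after RANKL was added, a cytokine without which precursors do not become osteoclasts. The sources call these osteoclast cells control, without giving their alleles, whether they carried Ctsk-Cre, or the number of mice, so p-values here measure the spread between libraries, which may be technical.

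PSCs are progenitors of the outer membrane of bone that give rise to osteoblasts, the cells that lay down collagen and mineral, and in fracture repair to cartilage. Osteoclasts are giant cells formed by fusion of monocyte-lineage precursors, and they dissolve bone mineral with acid pumped by a vacuolar proton ATPase and digest its collagen with cathepsin K. The 2 lineages signal to each other, PSC-type cells through RANKL and colony stimulating factors and osteoclasts through secreted growth factors.

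The osteoclast values were deposited as gene counts and the PSC values as RPKM (reads scaled to exon length and to the mapped reads of the library). Osteoclast counts were divided by exon length and every library was rescaled to a sum of 1000000 over the 42063 gene symbols shared by the 3 tables, a unit called TPM here. Within each library the 14347 genes with a mean of at least 1 TPM over the 6 controls were ranked and given a percentile from 0 to 100, and a difference is the mean PSC percentile minus the mean osteoclast percentile, in points. limma tested the differences with Benjamini-Hochberg adjustment over all 14347 genes, and a gene is called higher in 1 cell type at an adjusted p under 0.05. Percentiles compress the top of the scale, so the log2 difference of TPM + 1 is given beside them, where positive again means higher in PSCs. The median gene differed by -1.53 points, or -0.33 on the log2 scale. Cell type cannot be told apart from the table, culture against direct sorting or the age of the mice, which all went with it. No table held both cell types. Whether the program run or the library preparation also differed between them was not stated. Any such difference cannot be told apart from cell type either. Within the PSCs, controls 1 and 2 came in 1 table and control 3 in another. Differences of PSC control 3 from the other PSC libraries therefore cannot be told apart from its table.

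The osteoclast libraries held 2513440 to 2805824 counts over all genes and PSC control 3 held 5965011 exon counts. Taking the most frequent product of RPKM and exon length as 1 read put the mapped reads of PSC controls 1, 2 and 3 at 11376003, 10789165 and 6958265. In PSC controls 1 and 2, 85.8% of the values above 0 in each library lay within 0.02 of a whole read. Among the kept genes, 793 to 1585 were at 0 in a PSC library and 1143 to 1339 in an osteoclast library. Across genes, percentiles correlated at 0.972 to 0.976 between osteoclast libraries and at 0.972 between PSC controls 1 and 2, which is a description over genes that are not independent replicates. PSC control 3 stood apart, at 0.876 and 0.882 with the other PSC libraries, and between cell types the correlation was 0.439 to 0.525. The median SD within a cell type was 4.52 points in PSCs and 2.44 points in osteoclasts. The Y-linked Ddx3y was at 69.5, 6.49 and 0 TPM in PSCs and 35.3, 43.5 and 2.6 TPM in osteoclasts, so Y-linked transcript differed between libraries of 1 cell type.

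The marker genes followed the labels in all 6 libraries. Postn encodes periostin, a matrix protein named for the periosteum (GRCm38 chr3:54361109-54391037, plus strand), and stood at 2061, 2166 and 2700 TPM in PSCs and 2.29, 0.402 and 0.636 TPM in osteoclasts. The osteoclast values rested on 16, 3 and 5 reads, and the difference was 84.1 ± 3.66 points (SE, limma adjusted p = 5.46e-06), 10.19 on the log2 scale. Col1a1, the major collagen chain of bone (chr11:94936224-94953042, plus strand), stood at 54560, 42060 and 11370 TPM in PSCs and 83.5, 46 and 17.9 TPM in osteoclasts. The Col1a1 groups did not overlap, although its level in PSC control 3 was well below that of the other PSC libraries, and it differed by 29.3 ± 8.09 points (limma adjusted p = 0.017; log2 9.46). Acp5 encodes tartrate-resistant acid phosphatase, the enzyme stained to count osteoclasts (chr9:22126731-22135746, minus strand). Its level was 54.1, 58.1 and 33.6 TPM in PSCs and 13110, 11870 and 8699 TPM in osteoclasts, and every osteoclast library lay far above every PSC library. The Acp5 difference was -20.7 ± 2.8 points (limma adjusted p = 0.00069; log2 -7.84 ± 0.25), where the osteoclast percentiles lay at the ceiling of the scale. Mmp9, a gelatinase of osteoclasts (chr2:164940780-164955850, plus strand), stood at 86.7, 48.7 and 12.2 TPM in PSCs and 10300, 9091 and 6906 TPM in osteoclasts. It differed by -27.9 ± 9.86 points (limma adjusted p = 0.043; log2 -7.81). Of the 4 markers, Mmp9 lost its call without PSC control 2 (-32.0 points) or without any of the osteoclast controls (-27.9 points each), and moved to -15.4 points without PSC control 3, while Col1a1 moved to 19.4 points without osteoclast control 3 and kept its call. An exact two-sided permutation test of the 6 library labels gave p = 0.1 for each of the 4 markers, the smallest p that 3 against 3 allows. Ctsk, whose promoter drives the Cre, was high in both cell types, at 684, 798 and 572 TPM in PSCs and 18760, 16930 and 11830 TPM in osteoclasts. It was called higher in osteoclasts, with a difference of -1.19 points (limma adjusted p = 0.011), a log2 difference of -4.52. The call was lost with no filter on low values (-0.724 points) and in limma without a trend.

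**Figure D1:**
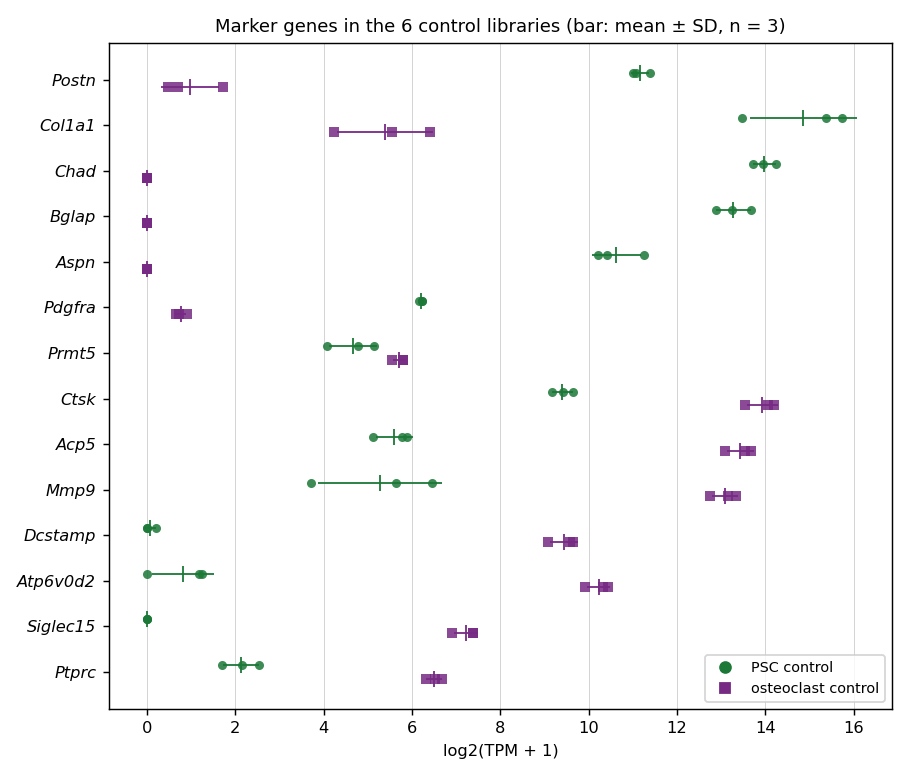
Levels of 14 marker genes on a log2(TPM + 1) axis, 1 row per gene, with a circle for each PSC control and a square for each osteoclast control and bars for the mean ± SD (n = 3). Postn, Col1a1, Chad, Bglap, Aspn and Pdgfra sit high in PSCs, Acp5, Mmp9, Dcstamp, Atp6v0d2, Siglec15 and Ptprc sit high in osteoclasts, and Prmt5 and Ctsk are well above 0 in both.

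Prmt5 itself (chr14:54507187-54517525, minus strand), the gene deleted in the other libraries of the study, was expressed in both cell types. It stood at 26.6, 34.6 and 15.8 TPM in PSCs and 46, 54.5 and 54.2 TPM in osteoclasts. The groups did not overlap, and the difference of -12 ± 4.97 points missed the threshold (limma adjusted p = 0.071), while on the log2 scale it was -1.04 ± 0.28 with a limma adjusted p of 0.012. The exact permutation p was again 0.1. Without PSC control 2 or PSC control 3 the difference was -16.1 or -6.31 points and passed the threshold. The PSC controls were Prmt5 flox/+ with Ctsk-Cre, and the alleles of the osteoclast controls were not given. For this gene, cell type and Prmt5 genotype therefore cannot be told apart.

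In all, 4143 of the 14347 genes (28.9%) were called higher in PSCs and 5053 (35.2%) higher in osteoclasts, and 5151 were not called. A stricter count, of genes that also differed by at least 25 points with no overlap of the groups, held 2027 genes (14.1%) on the PSC side and 2030 (14.1%) on the osteoclast side. These shares are the background against which each gene list below is read, and no list was tested as a set. Listed genes below 1 TPM were not tested, and a gene high in 1 cell type can pass that filter on this cell type alone, so the counts are descriptions. On the log2 scale, 40.1% of the calls were higher in PSCs, against 45.05% on percentiles and 51.07% with median-of-ratios scaling, under which the median gene differed by 0.03.

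The 10 largest differences toward PSCs, leaving out predicted genes, were all of genes with 0 reads in every osteoclast library. Chad, chondroadherin, a collagen-binding matrix protein of cartilage and tendon (chr11:94565047-94569127, plus strand), was at 15700, 19390 and 13530 TPM in the PSC libraries. Against a floor of 3 reads per osteoclast library, this is at least 7741-fold higher. The osteocalcin genes Bglap and Bglap2, the classical secreted products of mature osteoblasts, were at 13120, 7565 and 9711 and at 9308, 6998 and 15970 TPM, at least 1780-fold and at least 1440-fold higher. These 2 are near-identical neighbours, so the split of reads between them is uncertain. The leucine-rich proteoglycans of bone matrix Aspn (asporin) and Omd (osteomodulin) were at 1177, 1374 and 2446 and 906, 958 and 1702 TPM, at least 1111-fold and at least 526-fold higher, with Aspn sharing exon sequence with Cenpp on the other strand. Thbs4 (thrombospondin 4), Clec3a, Nov (a CCN matrix protein), and Igfbp6 (an insulin-like growth factor binding protein) had lower bounds of 1835-, 336-, 1240- and 783-fold. Clec3a and Nov were lower in PSC control 3, at 720 and 521.7 TPM, than in the other PSC libraries. The remaining gene of the 10 was the mitochondrial ribosomal RNA mt-Rnr2, described below with the histones.

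The 10 largest differences toward osteoclasts were 8 histone genes and 2 genes of osteoclast membranes. Dcstamp, the receptor-like protein required for fusion of osteoclast precursors (chr15:39745932-39760934, plus strand), was at 0.162, 0 and 0 TPM in PSCs and 768, 799 and 539 TPM in osteoclasts. Tm4sf19, a tetraspan membrane protein, was at 0, 0.307 and 0 TPM in PSCs and 293, 362 and 234 TPM in osteoclasts. Both were close to 0 in every PSC library and above 230 TPM in every osteoclast library, with differences of -93.8 ± 2.52 points and -91.3 ± 2.62 points (limma adjusted p = 2.92e-06 and 2.92e-06).

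The list of osteoclast resorption and fusion genes had 28 of 30 members higher in osteoclasts and none higher in PSCs, with a median of -53.8 points and -5.28 on the log2 scale. Trem2, an immunoreceptor that signals through the adaptor DAP12, was at 0.375, 0.234 and 0 TPM in PSCs and 126, 130.2 and 152 TPM in osteoclasts (-85.2 ± 2.44 points). Siglec15, a sialic acid receptor of the same adaptor and a target in osteoporosis research, was listed at 0 in every PSC library and at 166, 166 and 119 TPM in osteoclasts (-88.8 ± 2.57 points). Rufy4, an adaptor of lysosome and autophagosome traffic, was at 0.159, 0.662 and 0 TPM in PSCs and 173, 153 and 124 TPM in osteoclasts. Fcer1g, the other immunoreceptor adaptor, was not called, at 65, 42.3 and 3.62 TPM in PSCs and 817, 838 and 815 TPM in osteoclasts (limma adjusted p = 0.067). Nor was Cd109, at 146, 141 and 83.7 TPM in PSCs and 129, 125 and 86.2 TPM in osteoclasts, both named after their values were seen. The Fcer1g groups did not overlap, and its level in PSC control 3 was far below that in the other PSC libraries. The summed level of the list was 1563, 1637 and 1244 in PSCs and 54900, 50150 and 38030 in osteoclasts (TPM). With each library left out in turn, 26 to 29 members were higher in osteoclasts.

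The vacuolar proton pump showed subunits on both sides. Of 22 tested subunits, 17 were higher in osteoclasts and 3 in PSCs, and the summed level was 1901, 2000 and 1726 in PSCs and 12270, 11330 and 9305 in osteoclasts (TPM). Atp6v0d2, the d subunit isoform of osteoclasts (chr4:19876841-19922605, minus strand), was at 1.37, 1.28 and 0 TPM in PSCs and 1379, 1280 and 972 TPM in osteoclasts (-88 ± 3.29 points; limma adjusted p = 3.63e-06; log2 -9.42). Its widely expressed paralog Atp6v0d1 was at 115, 100.2 and 64.9 TPM in PSCs and 345, 322 and 273 TPM in osteoclasts, a difference of -7.97 points and -1.77 on the log2 scale. The d subunit was thus read mostly from Atp6v0d1 in PSCs and mostly from Atp6v0d2 in osteoclasts, on the per-length TPM scale. Among the membrane a subunits, Tcirg1, the a3 isoform mutated in human osteopetrosis, was at 25.9, 31.6 and 36.9 TPM in PSCs and 1331, 1345 and 1149 TPM in osteoclasts (log2 -5.31). Atp6v0a1 was at 23.1, 18.6 and 16.1 TPM in PSCs and 43.9, 44.1 and 44.4 TPM in osteoclasts and was also called higher in osteoclasts, with a smaller log2 difference of -1.17. Atp6v0a2 went the other way, at 55, 57 and 47.5 TPM in PSCs and 47.6, 39 and 36.7 TPM in osteoclasts (9.99 ± 2.19 points, limma adjusted p = 0.0065), although on the log2 scale the difference of 0.37 was not called (limma adjusted p = 0.074). Atp6v0a4, the kidney-type isoform and on the PSC-higher side, was at 13.7, 17.5 and 5.93 TPM in PSCs and 0.251, 0.234 and 0.667 TPM in osteoclasts. Atp6v0e2 was higher in PSCs too, at 10.8, 22 and 7.3 TPM in PSCs and 0, 1.47 and 0 TPM in osteoclasts, and these 2 were named after their values were seen. Of the cytosolic sector, Atp6v1c1 was at 19.9, 25.7 and 51 TPM in PSCs and 741, 701 and 594 TPM in osteoclasts. Atp6v1b2 was at 30.9, 39.9 and 31.8 TPM in PSCs and 1458, 1371 and 1137 TPM in osteoclasts. Atp6v1c1 and Atp6v1b2 differed by -4.46 and -5.23 on the log2 scale, and Atp6v1d and Atp6v1e1 by -4.43 and -2.76. The paralog Atp6v1c2 was near the filter, at 0.683, 0 and 6.62 TPM in PSCs and 0, 0.563 and 0 TPM in osteoclasts, and was not called (limma adjusted p = 0.4).

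The lysosomal cathepsins are proteases of which several besides Ctsk act in bone and in antigen processing. Of 14 tested, 4 were higher in PSCs, 5 were higher in osteoclasts and 5 were not called. These shares lie near the 28.9% and 35.2% of all genes, so the split is not particular to the cathepsins. The counts moved to 3 and 7 on the log2 scale, to 2 and 8 without PSC control 3, to 2 and 5 without PSC control 2, and to 2 and 4 without any 1 of the osteoclast controls. Ctss, a protease of antigen-presenting cells, was at 21.6, 17.6 and 7.76 TPM in PSCs and 1749, 1684 and 2243 TPM in osteoclasts (log2 -6.93). Ctsa, protective protein of lysosomal neuraminidase, was higher in osteoclasts, with a log2 difference of -2.12, and shares exon sequence with neighbours on the other strand. Ctsf stood on the PSC side at 323, 389 and 452 TPM in PSCs and 15.1, 13.6 and 15.7 TPM in osteoclasts (49.7 ± 1.66 points). Ctsh did so too, at 178, 178 and 134 TPM in PSCs and 46.9, 36.6 and 34.7 TPM in osteoclasts (23.6 ± 2.13 points). These 4 cathepsins were named for the smallest p in the list, so the lack of overlap between their groups is no further finding.

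Among matrix metalloproteinases and their inhibitors, 11 of 17 were higher in PSCs and 4 in osteoclasts, Mmp9 among the latter. Mmp12, macrophage elastase, was at 0.103, 1.54 and 0 TPM in PSCs and 102, 106 and 91.4 TPM in osteoclasts (-79.4 ± 3.49 points), and shares exon sequence with Mmp1b on the other strand. Mmp3, stromelysin, stood at 181, 198 and 376 TPM in PSCs and 0, 0.649 and 0 TPM in osteoclasts (88.6 ± 3.43 points). Timp3, a matrix-bound inhibitor of these enzymes, was at 443, 631 and 699.8 TPM in PSCs and 1.68, 1.15 and 0.272 TPM in osteoclasts, and Mmp23 differed by 66.7 ± 2.62 points. Thus both a protease and an inhibitor gene were higher on the PSC side.

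Macrophage and leukocyte identity genes marked the osteoclast libraries, 26 of 29 being higher there and none in PSCs, with a median of -56.5 points. C1qc, a chain of complement C1q made by macrophages, was at 2.12, 0.599 and 0 TPM in PSCs and 222, 257 and 367 TPM in osteoclasts (-85.1 ± 3.87 points). Ptprc, the leukocyte antigen CD45 and a gene of the PSC sort, was at 4.79, 3.45 and 2.27 TPM in PSCs and 90.5, 78.8 and 100.8 TPM in osteoclasts (log2 -4.37). The signalling lymphocyte receptor Cd84 and the scavenger receptor Msr1 differed by -78.8 ± 2.7 points and -68.5 ± 2.83 points. The members not called were Cd14, Coro1a and Lyz2, named after their values were seen. Lyz2, lysozyme, was at 1117, 701 and 98.2 TPM in PSCs and 11240, 11750 and 14690 TPM in osteoclasts with a log2 difference of -4.87 (limma adjusted p = 0.0014 on that scale). The summed macrophage level was 1555, 994 and 188 in PSCs and 20250, 20630 and 23760 in osteoclasts (TPM), and with each library left out in turn 25 to 28 members were higher in osteoclasts. The PSC libraries thus held a low macrophage signal that was lowest in PSC control 3. In bulk samples, fewer cells of a type and less RNA per cell cannot be told apart.

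**Figure D2:**
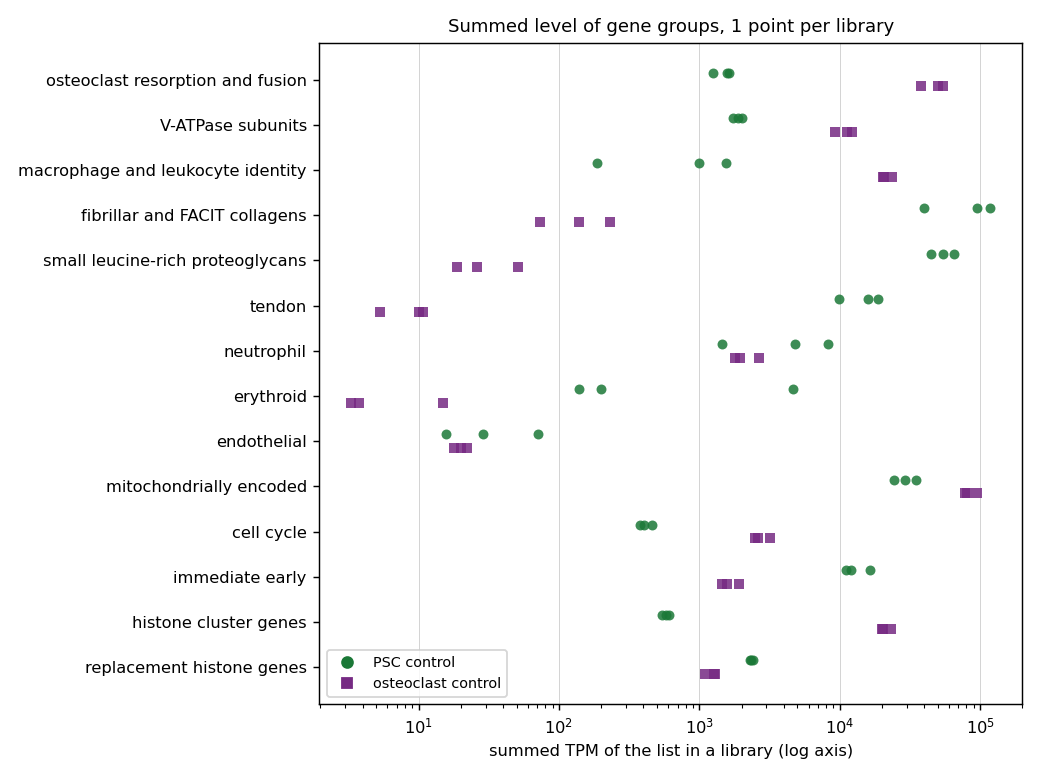
Summed TPM of gene groups in each library on a log axis, a circle for each PSC control and a square for each osteoclast control. The collagen, proteoglycan and tendon sums lie above the osteoclast values in all PSC libraries and the resorption, macrophage and histone cluster sums below them, while neutrophil and erythroid sums spread widely among the PSC libraries.

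Transcripts of other blood and tissue cells were present in the PSC libraries and were unequal among them. The neutrophil list summed to 8264, 4797 and 1447 in PSCs and 1939, 1800 and 2671 in osteoclasts (TPM). S100a8, a granule protein of neutrophils, was at 2290, 1459 and 521 TPM in PSCs and 389.5, 392 and 518 TPM in osteoclasts and was the member called, by 1.48 points, a call lost without PSC control 1 or 2 or osteoclast control 1 or 2 (1.22 to 1.39 points). The granule gene Ngp was at 1441, 704 and 4.74 TPM in PSCs and 349.6, 304 and 463 TPM in osteoclasts and was not called (limma adjusted p = 0.33). Without PSC control 3, 7 of the 10 neutrophil genes were called higher in PSCs in place of 1, Ngp moving to 1.84 points and the median of the list moving from -3.33 to 6.12 points. The haemoglobin and red cell list summed to 200.3, 139 and 4663 in PSCs and 3.32, 14.9 and 3.78 in osteoclasts, with 4 of 8 members called, the globin genes Hbb-bs, Hba-a1, Hba-a2 and Hbb-bt, which share reads with near-identical copies. Hbb-bs was at 75.4, 41.6 and 1755 TPM in PSCs and 0, 3.04 and 0 TPM in osteoclasts, far higher in PSC control 3 than in the other PSC libraries. Endothelial genes summed to 70.9, 28.8 and 15.8 in PSCs and 20, 18 and 22.2 in osteoclasts, and 1 of 8 was called, Vwf (von Willebrand factor), higher in osteoclasts at 0.0925, 0 and 0 TPM in PSCs and 5.35, 4.5 and 6.61 TPM in osteoclasts. Without PSC control 3, 3 of them were called higher in PSCs in place of 0, among them Plvap (27.0 points) and Erg (33.5 points), both endothelial genes. Skeletal muscle genes summed to 29.6, 29.7 and 123 in PSCs and 6.19, 8.14 and 20.9 in osteoclasts, with Tnni2 and Tnnt3 higher in PSCs and Ckm in osteoclasts at 0, 0.265 and 0 TPM in PSCs and 1.71, 1.6 and 3.42 TPM in osteoclasts. B and T cell genes, 5 tested, summed to 25, 36 and 31 in PSCs and 20.1, 16.9 and 22.5 in osteoclasts. Of 3 adipocyte genes tested, Pparg, a nuclear receptor also used in osteoclast formation, was at 2.77, 0.131 and 1.6 TPM in PSCs and 29.1, 30 and 31.1 TPM in osteoclasts. Lipoprotein lipase, Lpl, was at 46.2, 30.9 and 91 TPM in PSCs and 654, 725 and 818 TPM in osteoclasts, and both were called higher in osteoclasts. The part of these cells in the differences of other genes was not tested.

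Fibrillar collagens and the collagens bound to fibrils lay on the PSC side. Of 19 tested, 18 were higher in PSCs, with a median of 64.4 points and 7.66 on the log2 scale, and 18 were also called with each library left out in turn. Their summed level was 118700, 95260 and 39620 in PSCs and 231, 139 and 73.8 in osteoclasts (TPM). The 4 chains with the smallest p were of cartilage types. Col9a1 was at 364, 292 and 142 TPM in PSCs and 0.246, 0.23 and 0.218 TPM in osteoclasts (86.6 ± 2.63 points). Col9a2 was at 536, 449.7 and 374 TPM in PSCs and 0, 0 and 0.357 TPM in osteoclasts (91.7 ± 2.79 points). The type XI chains sit in the core of cartilage fibrils, and Col11a1 was at 1198, 873 and 346 TPM in PSCs and 0.386, 0 and 0.229 TPM in osteoclasts. Col11a2 was at 1038, 635 and 320.3 TPM in PSCs and 1.82, 1.88 and 2.1 TPM in osteoclasts. Because these 4 chains were picked by p, their lack of overlap between the cell types is no further finding. For all 4, PSC control 3 had the lowest PSC level. The member not called was Col20a1, named after its values were seen.

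Other collagens followed with 13 of 17 higher in PSCs. Col8a2, a short-chain network collagen, was at 980.5, 1069 and 645 TPM in PSCs and 0.278, 0.26 and 0 TPM in osteoclasts (91 ± 2.88 points). Col6a2, of the microfibrils around cells, was at 1418, 1402 and 562 TPM in PSCs and 4.94, 2.52 and 1.06 TPM in osteoclasts (75.3 ± 4.13 points), and the transmembrane collagen Col13a1 differed by 77.6 ± 3.75 points. Col10a1, the collagen of hypertrophic cartilage, was at 67.4, 190.1 and 1081 TPM in the PSC libraries and had 0 osteoclast reads, at least 397-fold. It varied widely, PSC control 3 being the highest library, and its exons overlap Nt5dc1 on the other strand. The exception was the basement membrane chain Col4a5, called higher in osteoclasts at 7.18, 8.6 and 13 TPM in PSCs and 20, 20.5 and 24.7 TPM in osteoclasts, and named after its values were seen.

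Small leucine-rich proteoglycans, which bind collagen and set fibril spacing, had 14 of 15 members higher in PSCs, with a median of 82.5 points and summed TPM of 44620, 54570 and 64980 in PSCs and 51.3, 26.1 and 18.8 in osteoclasts. Ecm2 was at 219, 218 and 243 TPM in PSCs and 0, 0 and 0.308 TPM in osteoclasts (89.8 ± 2.71 points), beside Aspn and Omd above. Matricellular proteins had 20 of 22 higher in PSCs and none in osteoclasts. Comp, the cartilage oligomeric matrix protein, stood at 8762, 8827 and 11810 TPM in PSCs and 0.42, 0.393 and 1.86 TPM in osteoclasts (85.6 ± 3.28 points; log2 12.41). Thbs3 was at 224, 275 and 144 TPM in PSCs with 0 osteoclast reads, at least 294-fold, sharing exon sequence with Mtx1 on the other strand. Enzymes and chaperones of procollagen had 26 of 31 higher in PSCs, none in osteoclasts. Adamts2, which cleaves the N-terminal propeptide of type I procollagen, was at 295, 322 and 255 TPM in PSCs and 2.13, 1.62 and 1.42 TPM in osteoclasts. Plod2, the lysyl hydroxylase of collagen telopeptides, was at 403, 383 and 204 TPM in PSCs and 0, 0.837 and 0.529 TPM in osteoclasts. Pcolce2, an enhancer of C-propeptide cleavage, and P3h3, of the prolyl hydroxylase family, differed by 79.9 ± 2.59 points and 73 ± 2.42 points. Most collagen chains, their processing enzymes and the proteins that coat the fibril therefore lay on the PSC side.

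Osteoblast and mineralization genes were higher in PSCs for 19 of 23 and in osteoclasts for 1, with a median of 50.7 points. Dmp1, a phosphoprotein of osteocytes and late osteoblasts, was at 1108, 295 and 258 TPM in PSCs and 8.11, 7.17 and 12 TPM in osteoclasts (58.4 ± 2.55 points). Dlx5, a homeobox factor of osteoblasts, was at 119, 114 and 281 TPM in PSCs and 0.875, 0.82 and 0 TPM in osteoclasts (82 ± 3.97 points). The osteoclast levels of both genes were low in each library. Chondrocyte genes gave 14 of 15 higher in PSCs, among them the hyaluronan link protein Hapln1, at 298, 159 and 271 TPM in PSCs and 0, 0 and 0.219 TPM in osteoclasts. Lubricin, Prg4, was at 215, 345 and 298 TPM in PSCs and 0, 0.273 and 0.259 TPM in osteoclasts. The member not called was Ihh, the hedgehog ligand of prehypertrophic cartilage, at 1.34, 2.53 and 33.4 TPM in PSCs and 0, 0 and 1.09 TPM in osteoclasts (limma adjusted p = 0.14), named after its values were seen. Its level in PSC control 3 was above that in the other PSC libraries. All 7 tendon genes were called higher in PSCs, with a median of 80.7 points. Tnmd, tenomodulin, was at 1447, 1665 and 124 TPM in PSCs with 0 osteoclast reads (at least 415-fold), and was far lower in PSC control 3 than in the others. The sorted PSC libraries carried bone, cartilage and tendon genes at once, in proportions that differed between PSC control 3 and the other libraries.

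Genes used to describe periosteal and other skeletal stem cells were higher in PSCs for 18 of 24, with 1 higher in osteoclasts and 5 not called. Pdgfra, a receptor of mesenchymal progenitors, was at 70.4, 74.2 and 73.4 TPM in PSCs and 0.87, 0.582 and 0.662 TPM in osteoclasts (72.8 ± 2.44 points; limma adjusted p = 2.95e-06), with closely matched values among all PSC libraries. Twist1, a repressor of osteoblast maturation, was at 159.9, 164 and 175 TPM in PSCs and 0.771, 0.722 and 2.05 TPM in osteoclasts. Nt5e, the surface nucleotidase CD73, was at 127, 122 and 129.7 TPM in PSCs and 2.15, 2.68 and 3.81 TPM in osteoclasts. Fgfr2, whose activating mutations cause craniosynostosis in humans, differed by 69.2 ± 2.38 points. Unlike Col1a1 or Tnmd, Pdgfra, Twist1 and Nt5e did not drop in PSC control 3. Pdgfra, Twist1 and Nt5e were named for small p, which favours genes with little spread between libraries. The contrast is therefore no finding about the list.

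The surface genes of the PSC sort are no finding in themselves, since the cells were picked by their proteins, and were read as a check. Cd200, a positive marker, was at 195, 174 and 256 TPM in PSCs and 85.9, 73.8 and 54.3 TPM in osteoclasts. Itgav, coding CD51 and also positive, was at 66.4, 66 and 42 TPM in PSCs and 354, 341 and 319 TPM in osteoclasts. Itgav transcript was therefore higher in osteoclasts (-14.6 ± 2.24 points), where the integrin pairs with Itgb3. Of the negative markers, Enpep, coding 6C3, was higher in PSCs, at 10.1, 14.2 and 7.05 TPM in PSCs and 0, 1.24 and 1.18 TPM in osteoclasts (31 ± 5.46 points). Eng, coding CD105, was at 14.9, 9.23 and 5.33 TPM in PSCs and 16.9, 12.4 and 24.6 TPM in osteoclasts. Pecam1, coding CD31, was at 2.84, 2.23 and 0.855 TPM in PSCs and 1.44, 2.97 and 3.85 TPM in osteoclasts. Thy1, coding CD90, was at 2.94, 7.17 and 0.607 TPM in PSCs and 2.87, 1.34 and 0 TPM in osteoclasts. These 3 overlapped between the cell types and were not called (limma adjusted p = 0.24, 0.26 and 0.36). All negative markers named here, Ptprc and Enpep among them, were at or below 14.9 TPM in all PSC libraries.

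Transcription factors of limb and skeletal mesenchyme were on the PSC side. Of 27 tested, 24 were higher in PSCs and none in osteoclasts (median 62.6 points). Sox9, the factor of skeletal progenitors and cartilage, was at 209.5, 187 and 186 TPM in PSCs and 1.21, 0.564 and 0.803 TPM in osteoclasts (80.6 ± 2.58 points). Prrx2, a limb bud homeobox factor, Mkx, a tendon factor, and Tbx15, a T-box factor of the skeleton, differed by 76.3 ± 2.68 points, 74.4 ± 2.71 points and 71.9 ± 2.72 points. Of 39 Hox genes listed, 15 passed the filter, 12 of them higher in PSCs. The gene higher in osteoclasts was Hoxb4, at 0, 1.05 and 0.205 TPM in PSCs and 7.77, 4.09 and 5.6 TPM in osteoclasts, named after its values were seen. Hoxa10, of the cluster that patterns the limb along its length, was at 94.5, 103 and 72 TPM in PSCs and 1.14, 0.357 and 0.677 TPM in osteoclasts (75.4 ± 2.87 points), and Hoxa9 and Hoxc10 differed by 56.3 ± 3.28 points and 70 ± 6.44 points, where Hoxc10 shares exon sequence with Hoxc5. Hoxd8 was at 13.8, 11.9 and 10.6 TPM in PSCs with 0 osteoclast reads, at least 9.44-fold.

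Transcription factors of the myeloid lineage divided less cleanly, with 12 of 26 higher in osteoclasts, 3 higher in PSCs and 11 not called. Mitf and Tfec, related factors that drive osteoclast and macrophage genes, were on the osteoclast side, Mitf at 1.86, 4.6 and 2.63 TPM in PSCs and 75.2, 69.1 and 82.1 TPM in osteoclasts (-62.2 ± 3.63 points). Tfec differed by -63.6 ± 2.47 points. Prdm1, coding Blimp1, which represses inhibitors of osteoclast formation, differed by -82.7 ± 4.84 points. Nfatc1, the factor that RANKL signalling switches on and a member named after its values were seen, was at 154, 142 and 108 TPM in PSCs and 451, 413 and 379 TPM in osteoclasts. It was thus far from absent in PSCs, with a log2 difference of -1.62 in favour of osteoclasts. Nr4a1, an orphan nuclear receptor induced within an hour of a stimulus, stood on the PSC side at 734, 539 and 479 TPM in PSCs and 4.53, 3.3 and 6.26 TPM in osteoclasts (68.2 ± 2.58 points).

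**Figure D3:**
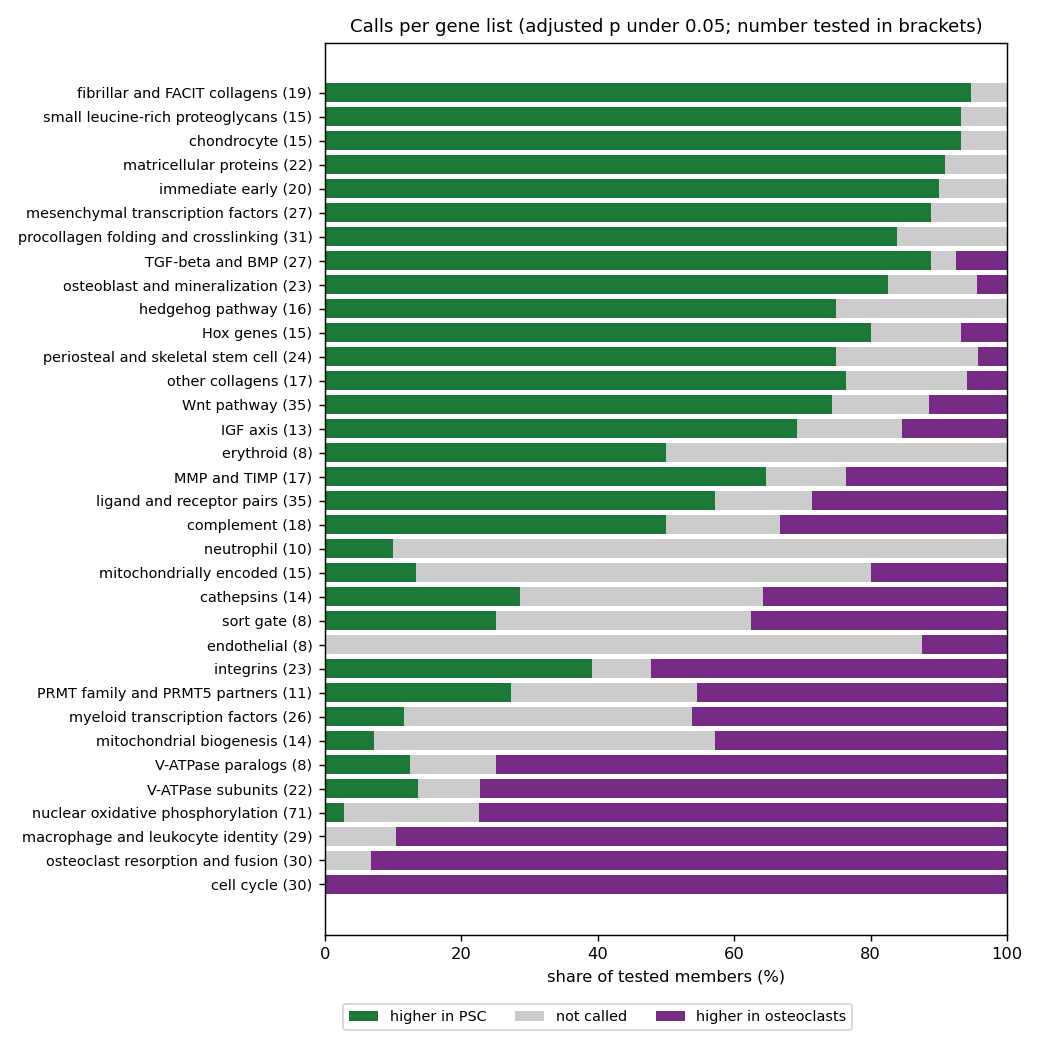
Share of tested members of each gene list called higher in PSCs, not called, or called higher in osteoclasts (horizontal axis in percent, number tested in brackets, lists with at least 8 tested members). Cell cycle, resorption and macrophage lists are almost wholly on the osteoclast side and fibrillar collagens, proteoglycans and chondrocyte genes almost wholly on the PSC side, against 28.9% and 35.2% of all genes.

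Signals by which the 2 cell types are known to reach each other were read for all 35 tested ligand and receptor genes, 20 higher in PSCs, 10 higher in osteoclasts and 5 not called. The RANKL system was split between the cells. Tnfsf11, coding RANKL, was at 38, 39 and 38.9 TPM in PSCs and 0.557, 0 and 0.989 TPM in osteoclasts (64.7 ± 3.46 points; limma adjusted p = 1.10e-05). Tnfrsf11b, coding the decoy receptor osteoprotegerin, was at 218, 200.5 and 128 TPM in PSCs and 5.75, 3.31 and 1.96 TPM in osteoclasts (67.5 ± 3.74 points). The receptor RANK, Tnfrsf11a, was at 0.062, 0 and 4.31 TPM in PSCs and 261, 255 and 244 TPM in osteoclasts (-84.2 ± 6.4 points; limma adjusted p = 4.74e-05). Ligand and decoy lay on the PSC side and receptor on the osteoclast side, without overlap in any of the 3 genes. The receptor of the colony stimulating factors, Csf1r, was at 4.79, 10.2 and 0.647 TPM in PSCs and 1436, 1325 and 1282 TPM in osteoclasts (-70.2 ± 7.23 points), and shares exon sequence with Hmgxb3 on the other strand. Its ligand gene Csf1 was at 58.9, 62.2 and 49.7 TPM in PSCs and 27.1, 18.8 and 8.59 TPM in osteoclasts. The other ligand gene, Il34, was at 21, 35.4 and 18.3 TPM in PSCs and 8.9, 4.76 and 7.34 TPM in osteoclasts. Both were higher in PSCs, by smaller log2 differences of 1.72 and 1.67.

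In the other direction, Pdgfb, the platelet-derived growth factor chain that preosteoclasts secrete, was at 0, 0.0926 and 1.08 TPM in PSCs and 240.3, 273 and 207 TPM in osteoclasts (-87.8 ± 3.72 points). Its receptor Pdgfrb was at 298, 398 and 312 TPM in PSCs and 10.5, 6.6 and 3.63 TPM in osteoclasts (62.5 ± 3.89 points). The ligand Pdgfa, in contrast, was at 42, 39.7 and 39.7 TPM in PSCs and 38.7, 39.3 and 42.2 TPM in osteoclasts. It was called on percentiles (5.34 ± 1.62 points, limma adjusted p = 0.025) while the log2 difference was 0.01 (limma adjusted p = 0.93), and the call was lost without PSC control 1 or 2 or osteoclast control 1 or 2 (4.77 to 5.48 points). Sema4d, a semaphorin of osteoclasts, was at 16.8, 11 and 10.6 TPM in PSCs and 559, 499 and 446 TPM in osteoclasts. The gene of its receptor, Plxnb1, was at 18, 12 and 6.97 TPM in PSCs and 1.43, 0.486 and 0.346 TPM in osteoclasts. The pair lay on opposite sides, by -49.4 and 33.6 points. Cxcl12, the chemokine that holds blood precursors in marrow, was at 59.3, 30.4 and 99.5 TPM in PSCs and 4.57, 2.71 and 1.35 TPM in osteoclasts. Its receptor Cxcr4 was at 2.05, 2.34 and 2.62 TPM in PSCs and 59.9, 31 and 43.4 TPM in osteoclasts. This pair too was split, by 57.2 and -53.2 points.

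Several pairs had both genes on the PSC side. Slit3, an axon guidance ligand, was at 52.6, 42.5 and 88.4 TPM in PSCs and 0, 0.192 and 0.365 TPM in osteoclasts. Its receptor Robo1 was at 31.7, 35.5 and 36 TPM in PSCs and 0.329, 0.617 and 0.585 TPM in osteoclasts. Wnt5a and its receptor Ror2, a pair described in osteoblast control of osteoclast precursors, differed by 51.6 ± 3.68 points and 58.6 ± 2.77 points, Wnt5a being at 21.1, 23.1 and 24.2 TPM in PSCs and 0, 1.04 and 0.99 TPM in osteoclasts. Sphk1, the kinase that makes sphingosine 1-phosphate, was at 58.6, 55.5 and 48.4 TPM in PSCs and 5.48, 7.33 and 5.33 TPM in osteoclasts. The receptor S1pr1 was at 140.1, 135 and 332 TPM in PSCs and 5.72, 4.98 and 4 TPM in osteoclasts. Ostn, osteocrin, a secreted peptide of periosteal osteoblasts, was at 450.1, 235 and 757 TPM in PSCs with 0 osteoclast reads, at least 194-fold. Ephb4 was at 41.2, 59.1 and 28.5 TPM in PSCs and 0.269, 0.503 and 0.954 TPM in osteoclasts (63.8 ± 4.19 points). Its ligand Efnb2 was at 20.7, 21.4 and 16.3 TPM in PSCs and 33.3, 31.4 and 20.5 TPM in osteoclasts and was not called (limma adjusted p = 0.61). The cytokine Lif was higher in osteoclasts (-13.9 ± 4.25 points) and its receptor Lifr in PSCs (55.9 ± 6.88 points), the Lif call being lost without PSC control 1 or osteoclast control 1 or 2 (-11.9 to -12.1 points).

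The genes of osteopontin and its receptors did not share a direction. Spp1, coding osteopontin, was at 7888, 7351 and 4000 TPM in PSCs and 1832, 1778 and 1426 TPM in osteoclasts, a log2 difference of 1.88 (limma adjusted p = 0.0007 on that scale), but near the top of every library it was not called on percentiles (limma adjusted p = 0.4). Cd44 was at 55, 54.2 and 51.6 TPM in PSCs and 289, 318 and 308 TPM in osteoclasts (log2 -2.49). Itgb3, the beta chain of the osteoclast vitronectin receptor, was at 7.11, 5.42 and 1.7 TPM in PSCs and 424, 376 and 328 TPM in osteoclasts (-68.6 ± 5.15 points). Itgb5 was at 720.4, 921 and 1065 TPM in PSCs and 81.9, 72.5 and 65.2 TPM in osteoclasts (15.4 ± 1.11 points), so these 2 beta chains, both partners of Itgav, lay on opposite sides. Plxna1, a semaphorin receptor of osteoclasts, was at 21.3, 26.2 and 7.5 TPM in PSCs and 124, 119 and 147 TPM in osteoclasts. Its partner Nrp1 was at 19.3, 21.2 and 21.6 TPM in PSCs and 23.9, 21.9 and 26.9 TPM in osteoclasts, and the ligand gene Sema3a differed by 13.4 ± 6.86 points. Nrp1 and Sema3a were not called (limma adjusted p = 0.41 and 0.13), though Sema3a was called without PSC control 3 (21.3 points). The stem cell factor receptor Kit was higher in osteoclasts (-13.7 ± 3.68 points), and its ligand Kitl was not called (-3.53 ± 4.11 points, limma adjusted p = 0.47).

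**Figure D4:**
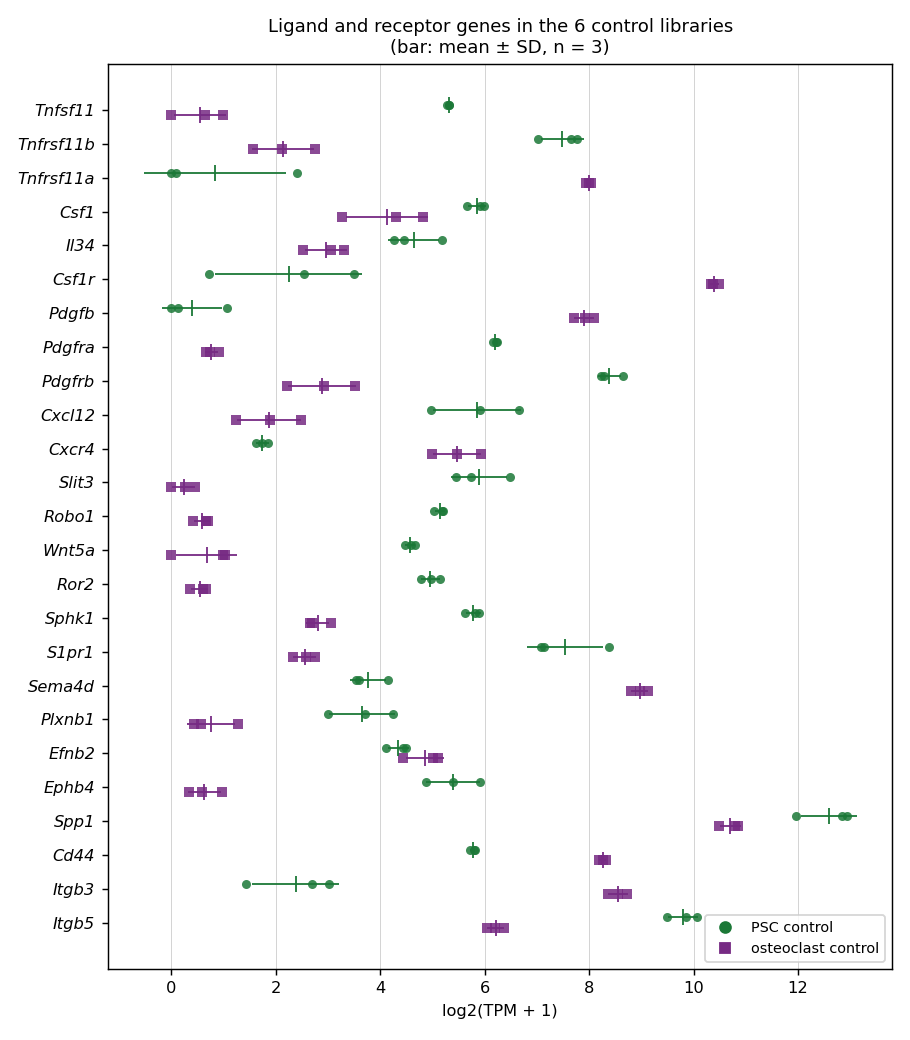
Levels of ligand and receptor genes on a log2(TPM + 1) axis, 1 row per gene, a circle for each PSC control, a square for each osteoclast control and bars for the mean ± SD (n = 3). Tnfsf11, Tnfrsf11b, Pdgfrb and Cxcl12 sit high in PSCs and Tnfrsf11a, Csf1r, Pdgfb and Cxcr4 high in osteoclasts.

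Integrins, the matrix receptors, were split, with 9 of 23 higher in PSCs and 12 in osteoclasts. The collagen-binding chains Itga11, at 258, 319 and 360.4 TPM in PSCs and 3.16, 1.36 and 0.862 TPM in osteoclasts, and Itga10 (61.2 ± 3.97 points) lay on the PSC side. The leukocyte chains Itgax, at 0.309, 0.481 and 0 TPM in PSCs and 58.9, 60.7 and 56.9 TPM in osteoclasts, and Itga4 (-74.6 ± 2.49 points) lay on the osteoclast side.

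Pathways of skeletal growth signals were mostly on the PSC side. Of 16 hedgehog genes 12 were higher in PSCs and none in osteoclasts. Smo, the signal transducer, was at 124, 161 and 97.3 TPM in PSCs and 4.29, 1.54 and 1.17 TPM in osteoclasts (70.2 ± 3.96 points). The co-receptors Gas1 and Boc were at 270.1, 413 and 309.5 and 204, 289 and 132 TPM in PSCs and at 2.1, 0 and 1.49 and 12.9, 7.85 and 10.2 in osteoclasts, and the factor Gli3 differed by 38.9 ± 2.98 points. Of 35 Wnt genes 26 were higher in PSCs and 4 in osteoclasts. The secreted Wnt antagonist Sfrp2 was at 856, 870.2 and 589 TPM in PSCs and 1.16, 1.08 and 1.03 TPM in osteoclasts. Wif1, another such antagonist, was at 1529, 1559 and 624 TPM in PSCs and 0.513, 0 and 0.456 TPM in osteoclasts, and the receptors Fzd1 and Fzd8 differed by 68.2 ± 2.6 points and 75.1 ± 3.13 points. The members higher in osteoclasts were Wnt2b, Fzd3, Fzd5 and Lrp5, named after their values were seen. Of 27 TGF-beta and BMP genes 24 were higher in PSCs, among them the ligand Bmp5 (80.2 ± 2.91 points), the receptors Tgfbr3 (73.4 ± 2.81 points) and Bmpr1a (65.7 ± 2.63 points) and the latency protein Ltbp1 (60.1 ± 2.92 points). The receptors Tgfbr1 and Bmpr2 were higher in osteoclasts (-9.55 and -23.8 points) and were named after their values were seen.

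Insulin-like growth factor genes were higher in PSCs for 9 of 13, all 4 named members being binding proteins. Igfbp5, which binds to matrix, was at 1036, 993 and 759.5 TPM in PSCs and 2.07, 1.17 and 1.1 TPM in osteoclasts. Igfbp3 was at 161, 410.1 and 127 TPM in PSCs with 0 osteoclast reads, at least 207-fold. Igfbp4 differed by 30.7 ± 1.69 points, beside Igfbp6 above. The 2 receptor genes Igf2r and Insr, named after their values were seen, lay on the osteoclast side by -9.41 and -21.9 points. Complement genes lay on both sides, 9 of 18 being higher in PSCs and 6 in osteoclasts. The proteases C1ra and C1s1 lay on the PSC side (66.1 ± 2.52 points and 88.9 ± 3.7 points), while C1qc, which they bind in plasma, and the anaphylatoxin receptor C3ar1, at 0.604, 0.0895 and 1.35 TPM in PSCs and 105, 92.9 and 117 TPM in osteoclasts, lay on the osteoclast side.

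Genes of DNA replication and mitosis were higher in osteoclast cultures throughout. All 30 members of the cell cycle list were called (30 higher in osteoclasts), with a median of -42.6 points, and 29 to 30 were with each library left out in turn. Mki67, the proliferation antigen, was at 4.46, 3.41 and 5.44 TPM in PSCs and 182, 164 and 212 TPM in osteoclasts (-66.3 ± 2.72 points). Cdk1, the mitotic kinase, was at 5.64, 5.23 and 6.73 TPM in PSCs and 80.6, 88.7 and 87.7 TPM in osteoclasts (-53.5 ± 2.49 points). The mitotic checkpoint genes Bub1b and Bub1 differed by -63.2 ± 3.21 points and -62.7 ± 3.72 points, Bub1b being at 4.69, 2.79 and 5.17 TPM in PSCs and 121, 98.2 and 132 TPM in osteoclasts. Each of these was present but low in every PSC library.

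Histone genes of the replication-dependent clusters lay mostly on the osteoclast side, and were grouped after their values were seen. Of 66 tested, 60 were higher in osteoclasts, 1 was higher in PSCs and 5 were not called, with a median of -76.7 points and -6.55 on the log2 scale. Their summed level was 541.3, 604.0 and 578.5 TPM in the PSC libraries and 20090, 20340 and 23060 TPM in the osteoclast libraries, and 17 of them were listed at 0 in every PSC library. Hist1h2bb, an H2B gene, was listed at 0 in each PSC library and at 1248, 1262 and 1446 TPM in osteoclasts, and Hist1h3a, an H3 gene, at 0, 0 and 0 and 264, 275 and 338. The transcripts of these clusters end in a stem-loop and lack a poly(A) tail. The 11 replacement histone genes, most of whose transcripts carry one, were mixed, 6 higher in PSCs, 2 in osteoclasts and 3 not called. They summed to 2430, 2298 and 2318 TPM in PSCs and 1267, 1094 and 1300 TPM in osteoclasts. The 2 mitochondrial ribosomal RNAs went against the histones. mt-Rnr2 was at 1897, 2457 and 3487 TPM and mt-Rnr1 at 367, 458 and 858 TPM in PSCs, with 0 reads for both in every osteoclast library. Whether these opposite extremes came from the cells or from how each library was prepared and counted cannot be told apart. With histone cluster and mitochondrial genes and all non-coding genes left out, a setting added after seeing the data, all 30 cell cycle genes were still higher in osteoclasts.

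Promoter sequence was read for these groups, because their members moved together. RefSeq gave a window of 250 bases upstream of the start (GRCm38.p6, first window of each gene) for 27025 genes, of which 34.5% held CCAAT, 13% TATAAA and 1.61% the octamer ATTTGCAT on either strand, with matches allowed to overlap. Of the 30 cell cycle genes 26 had a window and 22 of these (84.6%) held CCAAT. Of the 66 histone cluster genes 59 had one, and CCAAT was in 48 (81.4%), TATAAA in 28 (47.5%) and the octamer in 11 (18.6%). All 15 windows of the 17 H2B genes held CCAAT. Lists mostly or partly on the PSC side were also above the 34.5%, with CCAAT in 10 of 16 osteoblast windows (62.5%), 7 of 12 mesenchymal factor windows (58.3%) and 5 of 6 red cell windows (83.3%). Other lists lay below it on both sides. On the osteoclast side, CCAAT was in 3 of 20 resorption and fusion windows (15%) and 5 of 19 macrophage windows (26.3%). On the PSC side, it was in 2 of 12 chondrocyte windows (16.7%) and 2 of 13 hedgehog windows (15.4%). A match is a stretch of letters, not a bound site. The windows below show 2 histone genes among the 10 largest osteoclast differences, 2 cell cycle genes and, from the PSC side, Bglap, in the sense of the gene and ending at its start, with capitals marking the matches, where ATTGG and TTTATA are CCAAT and TATAAA on the other strand. They lie at chr13:23746484-23746733 (plus strand, Hist1h2bb), chr13:22035571-22035820 (plus, Hist1h2bk), chr10:69352913-69353162 (minus, Cdk1), chr2:118597961-118598210 (plus, Bub1b) and chr3:88384467-88384716 (minus, Bglap).
Hist1h2bb: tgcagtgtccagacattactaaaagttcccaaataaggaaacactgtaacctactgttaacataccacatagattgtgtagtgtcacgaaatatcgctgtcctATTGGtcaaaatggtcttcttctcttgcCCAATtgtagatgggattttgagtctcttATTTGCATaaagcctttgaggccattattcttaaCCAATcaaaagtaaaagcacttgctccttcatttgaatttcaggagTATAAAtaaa
Hist1h2bk: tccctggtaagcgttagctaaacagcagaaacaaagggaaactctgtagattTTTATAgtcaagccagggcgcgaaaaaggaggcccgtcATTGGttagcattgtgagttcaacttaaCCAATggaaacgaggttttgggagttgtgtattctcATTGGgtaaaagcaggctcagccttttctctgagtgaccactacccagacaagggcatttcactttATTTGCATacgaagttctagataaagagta
Cdk1: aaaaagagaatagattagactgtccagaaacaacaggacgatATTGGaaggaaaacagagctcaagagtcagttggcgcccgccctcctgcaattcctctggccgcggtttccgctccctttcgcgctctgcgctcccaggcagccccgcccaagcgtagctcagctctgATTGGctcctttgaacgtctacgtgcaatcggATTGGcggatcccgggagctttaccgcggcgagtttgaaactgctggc
Bub1b: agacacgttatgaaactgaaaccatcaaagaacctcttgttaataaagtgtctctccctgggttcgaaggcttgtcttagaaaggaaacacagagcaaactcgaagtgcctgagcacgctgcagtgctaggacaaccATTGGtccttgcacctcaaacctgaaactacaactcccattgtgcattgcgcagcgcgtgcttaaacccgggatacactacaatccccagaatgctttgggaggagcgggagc
Bglap: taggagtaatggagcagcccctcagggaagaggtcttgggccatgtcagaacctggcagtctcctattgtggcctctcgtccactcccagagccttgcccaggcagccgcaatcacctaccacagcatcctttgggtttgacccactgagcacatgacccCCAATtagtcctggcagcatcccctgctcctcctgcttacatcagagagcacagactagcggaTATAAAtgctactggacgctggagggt

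Both histone windows carried 3 CCAAT matches, 1 TATAAA match and 1 octamer, Cdk1 carried 3 CCAAT matches and Bub1b 1, and Bglap 1 CCAAT and 1 TATAAA.

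Immediate early genes, which cells induce within minutes of growth factors, stress or handling, ran the other way to the cell cycle genes, 18 of 20 being higher in PSCs and none in osteoclasts (median 23.6 points). Fosb, an AP-1 subunit, was at 496, 405 and 181 TPM in PSCs and 0.659, 0.308 and 0 TPM in osteoclasts (87.7 ± 3.37 points). Egr1, a zinc finger factor, was at 1387, 1068 and 1135 TPM in PSCs and 5.56, 3.38 and 6.91 TPM in osteoclasts (67.6 ± 2.68 points), and the flow-responsive factor Klf2 differed by 56.6 ± 2.27 points. Their summed level was 16330, 12050 and 11050 in PSCs and 1455, 1564 and 1905 in osteoclasts (TPM). The PSC cells had been freed from tissue and sorted while the osteoclasts came from the dish, so cell type and handling cannot be told apart here. The members not called were Egr3 and Myc, named after their values were seen.

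Genes of mitochondrial energy supply were higher in osteoclasts by small steps. Of 71 nuclear genes of oxidative phosphorylation, 55 were higher in osteoclasts and 2 in PSCs. The median was -3.92 points and -1.34 on the log2 scale, and the lowest member lay at -25.7 points. None met all conditions of the stricter count. Ndufb8, of complex I, was at 47.7, 49.7 and 54.7 TPM in PSCs and 195, 209.5 and 179 TPM in osteoclasts (log2 -1.92). Sdhc, of complex II, Cox5b, of complex IV, and Atp5d, of the ATP synthase, differed by -10.8 ± 0.838 points, -8.55 ± 0.584 points and -6.08 ± 0.42 points. Transcripts encoded in the mitochondrial genome made up 2.43 to 3.49% of TPM in PSCs and 7.84 to 9.54% in osteoclasts, although 10 of 15 genes were not called on percentiles, lying near the top of every library. mt-Nd5 and mt-Nd6, which overlap on opposite strands, were called higher in osteoclasts. Of 14 tested genes listed for mitochondrial biogenesis, 6 were higher in osteoclasts, 1 was higher in PSCs and 7 were not called. Their median was -5.56 points, and 35.2% of all genes were called higher in osteoclasts. Among the members of smallest p, the coactivator Ppargc1b was at 1.68, 2.9 and 3.83 TPM in PSCs and 107, 106 and 99.2 TPM in osteoclasts (-67.7 ± 3.18 points). Its nuclear receptor partner Esrra differed by -45.9 ± 5.16 points. The brain-type creatine kinase Ckb was at 273, 277 and 328 TPM in PSCs and 7163, 6856 and 5435 TPM in osteoclasts. The mitochondrial form Ckmt1 was at 0, 0 and 0 TPM in PSCs and 18, 11.7 and 12 TPM in osteoclasts.

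Arginine methyltransferases and the partners of Prmt5 had 3 of 11 genes higher in PSCs, 5 in osteoclasts and 3 not called. Of all genes, 28.9% and 35.2% were called on these sides. Wdr77, coding MEP50, the obligate partner of Prmt5, was at 21, 22.1 and 15.6 TPM in PSCs and 3.86, 4.82 and 3.88 TPM in osteoclasts (30.3 ± 3.48 points), and shares exon sequence with Atp5f1 on the other strand. Its direction was thus the opposite of that of Prmt5 on the log2 scale. Prmt1, the main asymmetric methyltransferase, was at 40.6, 40.4 and 31.2 TPM in PSCs and 133, 121 and 123 TPM in osteoclasts (-16.4 ± 1.91 points). Carm1 and Prmt2 lay on the PSC side, Carm1 at 54.4, 61.5 and 54.9 TPM in PSCs and 27.9, 24.8 and 32 TPM in osteoclasts and Prmt2 by 28.4 ± 5 points.

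The same contrast was then read in the 6 libraries labelled cKO, which share no library with the controls but share the tables, the protocols and the target gene. Of the 2027 genes large and higher in control PSCs, 2023 had the same direction in the libraries labelled cKO and 1983 also had no overlap there. Of the 2030 on the osteoclast side, 2026 kept the direction and 1993 had no overlap. Of all called genes, 4083 of 4143 and 4953 of 5053 had the same direction, while 12 and 24 were opposite with no overlap. In the libraries labelled cKO, 4742 of all 14347 genes were called higher in PSCs and 5477 higher in osteoclasts. The shares with the same direction or no overlap were not taken over all genes, so the repeat counts are descriptions. Prmt5, the targeted gene, did not repeat. It was at 33.7, 25.4 and 32.6 TPM in the PSC libraries labelled cKO and 23, 27.8 and 26.1 TPM in the osteoclast libraries labelled cKO. These TPM values overlap between the cell types, while the percentiles do not (7.4 points against -12 in the controls). Against the control values above, Prmt5 was lower in every osteoclast library labelled cKO, but not in the PSC libraries labelled cKO. The paper reports lower Prmt5 mRNA and protein in PSCs of its knockout mice. The whole-gene values here, set against flox/+ controls with Ctsk-Cre, do not show that fall, and the reason was not tested.

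**Figure D5:**
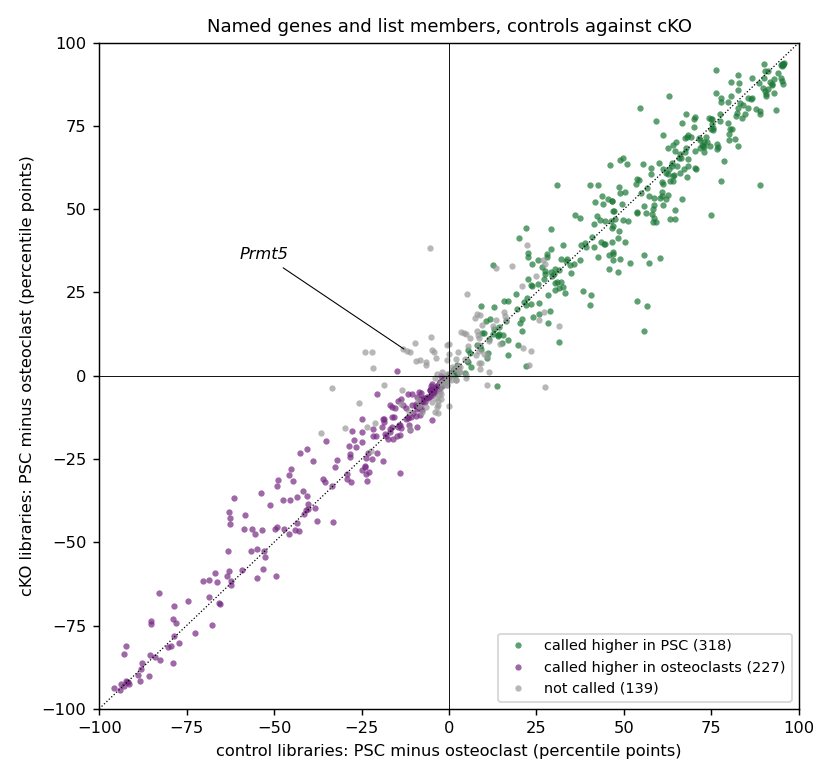
Difference between cell types in percentile points for 684 named and listed genes, with the control libraries on the horizontal axis and the libraries labelled cKO on the vertical axis, coloured by the call in the controls, and a dotted line of equality. Of all 684 genes 649 fall on the same side of 0 in both, and of the 545 called genes 542 do. Prmt5 lies at -12.0 in the controls and 7.4 in the libraries labelled cKO.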

How the data were processed

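RNA was sequenced on an Ion Torrent Proton. The study's methods name FastQC 0.1.1.8, Trim Galore 0.6.4, kallisto 0.46.0 and DESeq2 with the GRCm38 build, but which program made the tables, whether it used strand and which cDNA kit each cell type had were not stated. The authors deposited osteoclast values as read counts per gene, PSC values as RPKM, and for PSC control 3 also exon counts and exon length. No further column of per-sample values was set aside (0 columns). Columns of the authors' own comparison, with fold changes and p-values, were not used.

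Gene symbols shared by the 3 tables (42063) were kept, osteoclast counts were divided by the exon length of the PSC control 3 table, and each library was scaled to a sum of 1000000 (TPM). Genes with a mean of at least 1 TPM over the 6 controls (14347) were ranked within each library on a scale of 0 to 100, and limma 3.58.1 with a mean trend (R 4.3.3) compared 3 against 3 libraries, two-sided, with Benjamini-Hochberg adjustment and a threshold of 0.05. A second fit used log2(TPM + 1), which understates the change of low genes. For genes with 0 osteoclast reads, the fold was computed against 3 reads in each library and covers counting error only. For the RPKM libraries, RPKM times exon length was divided by its most frequent value, taken as 1 read, to give mapped reads. Tested on simulated data, the fit called 52 of 100 genes with a 2-fold change, 82 of 100 with a 4-fold change and 7 of 14147 without one. The simulation took its spread from the osteoclast libraries, gave every PSC library the depth of PSC control 3 and changed few genes. In the data the PSC libraries spread more (median SD 4.52 against 2.44 points) and 9196 genes were called. These rates therefore need not hold for this comparison.

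The members and gene lists were chosen with earlier results of these data known. Named genes were Prmt5, 4 markers, the 10 largest differences without overlap in each direction (predicted genes left out), for each list the 4 genes of smallest p, and all sort, ligand-receptor and proton pump paralog genes; others are marked in the text. Of 195 named genes in the annotation, 52 share an exon with another gene, mostly on the other strand, and their values are uncertain to that extent, as are those of near-identical copies. Alternatives were other filters, pseudocounts, scalings, a length limit, a block, leaving out libraries, and edgeR 4.0.16 and DESeq2 1.42.0 on counts. Sequences came from RefSeq.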

Additional observations from a re-analysis of the deposited data

Results flagged for a closer look

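Prmt5 differed between cell types in opposite directions in the 2 genotypes. On percentiles it lay at -12.0 points (PSC minus osteoclast) in the control libraries and at 7.4 points in the libraries labelled cKO, with no overlap of the cell types in either, although the TPM values overlapped in the libraries labelled cKO. The difference between the genotypes was not tested.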

How the results depend on the processing

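The count of called genes was 9196 and lay between 7740 and 10273 over the alternatives run, and the count of large differences was 4057, between 3548 and 4520. With each library left out in turn, 8009 to 10273 genes were called and 4002 to 4131 were large. With the replicate number as a block, 8704 genes were called and 4064 were large. Deviations of same-numbered libraries correlated at 0.00211, 0.00831 and 0.00929, so the numbers do not pair them. On counts, with PSC control 3 as the lone PSC library, assumed to vary like the osteoclast libraries, edgeR called 9885 of 12665 genes and DESeq2 8412. With protein-coding genes only and without histone cluster and mitochondrial genes, a setting added after seeing the data, 8655 were called.

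Among the named genes, Nrp1, which was not called, changed sign on the log2 scale (-0.21) and with exon length limited to 3000 bases, to -15.3 from 2.45 points, where it was called. Ngp changed sign without PSC control 3, at 1.84 points against -21.8, its values with each library left out in turn lying between -33.7 and 1.84. With 1 library left out, Kitl, Atp6v1c2, Cd2, Fabp4 and Ddx3y, none of them called, also changed sign. Ckb, mt-Nd5, Mmp9 and S100a8 lost their calls in limma without a trend, the last 3 also with no filter on low values, and Kit with median-of-ratios scaling. The median of the neutrophil list changed sign in 4 settings. The causes were not tested.

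With the genes in 4 nearly equal groups by exon length, the median difference was -1.32, 0.383, -0.92 and -4.88 points from the shortest to the longest. The osteoclast libraries held the fewest reads, so a gene at 0 reads there is not shown to be absent, and with 3 libraries a side no exact test can go below 0.1.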
